A study of Homo sapiens with 16 samples.

Results

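Full-length transcript models from HT-1080 cells were compared between 1 pool transfected with a siRNA against HNRNPH1 (siHNRNPH1) and 1 pool transfected with a negative-control siRNA (siNegative). HT-1080 is a human fibrosarcoma line. Both pools received 20 nM siRNA and were harvested 48 hours later, and each combines replicates, as the sample titles say. All models of the 2 HT-1080 IsoSeq pools were taken, 140264 of the 299816 models in the 4 IsoSeq pools of the series. The other 2 pools come from HEK-293T, a human embryonic kidney line given the same siRNAs, and hold 64705 (siNegative) and 94847 (siHNRNPH1) models. Short-read libraries from HT-1080, 3 per siRNA with totals of 27.3 to 32.7 M counts each, give a replicated measurement of the same comparison. The labels do not say whether the pools and the short-read libraries share RNA. Among the short-read libraries siNegative replicate 2 stood apart, since its counts over genes gave chi-square values of 16.2 and 15.8 per degree of freedom against the other siNegative libraries, while the remaining pairs within a group gave 1.74 to 2.32. Without it 11625 genes changed in level (10538 with it, edgeR) and 1741 in transcript usage (1818 with it, limma diffSplice), and the 9 genes whose level was followed under each alternative kept their direction and call.

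HNRNPH1 is an RNA-binding protein of the hnRNP H/F family. It binds runs of guanine in pre-mRNA and, depending on where it binds, favours or blocks the use of nearby splice sites. IsoSeq reads whole cDNA molecules on a long-read sequencer, so each model shows which first exon, splice sites and last exon occurred together. The models are collapsed isoforms, and whether the first exon of a model is the true start of its transcript was not tested. The files list each distinct model once without its read number. A share of models is therefore not a share of molecules, and with 1 pool per siRNA no p-value is given for any difference between pools. The exact Clopper-Pearson 95% intervals below cover the counting of models only.

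HNRNPH1 itself was represented by 15 models in the siNegative pool and 2 in the siHNRNPH1 pool. In short reads its level was 635, 606 and 617 CPM (the gene's counts scaled to the library's total) in the siNegative libraries and 231, 231 and 228 CPM in the siHNRNPH1 libraries, so the groups did not overlap. The log2 fold change was -1.49 (SE 0.0418, adjusted p = 6.76e-09, edgeR quasi-likelihood test). An intron of HNRNPH1 at chr5:179623165-179623594 (minus strand) was spliced out in 6 of 14 siNegative models that spanned it, and neither of the 2 spanning siHNRNPH1 models had it. With 2 models that difference was not detectable at this depth.

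The siNegative pool held 72186 models at 10826 loci and the siHNRNPH1 pool 68078 models at 10707 loci. The median exonic length was 2722 and 2832 nt, the median last exon 1002 and 1042.5 nt, and both medians for exon number were 10. Models of 7 of the 8 fibrosarcoma markers (VIM, FN1, CD44, CAV1, LGALS1, PLAU and MMP14) were present in both pools, while S100A4 had none and lay below 1 CPM in short reads. Of the epithelial markers, EPCAM and CDH1 had 0 models and KRT8 and KRT18 had 6 to 9. Of the HEK-293T markers, PAX2 and SOX11 had 0 models, LIN28B had 3 and 2, and HOXA10 had 9 and 7.

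Most of the transcript structure was common to both pools. At the 9782 loci present in both, 106910 introns were shared, which is 90.2% of the siNegative introns and 90.5% of the siHNRNPH1 introns. Internal exons were shared to 92.9% and 93.1%. Whole intron chains, the ordered set of introns of a model, were shared less, at 56.4% and 59.8%. Of the introns seen in a single pool, 85.5% (siNegative) and 84.3% (siHNRNPH1) came from 1 model.

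The number of models at a locus followed the short-read level of its gene. CEMIP, a hyaluronan-degrading protein, had 7 siNegative and 46 siHNRNPH1 models, and its level was 117, 93.4 and 118 CPM against 726, 698 and 727 CPM. The groups did not overlap, and the log2 fold change was 2.65 (SE 0.0820, adjusted p = 9.96e-09, edgeR). LAMA4, a laminin chain, had 6 and 23 models and rose by 1.52 on the log2 scale (adjusted p = 5.43e-08, edgeR). CEMIP2, a relative of CEMIP, had 8 and 26 models and rose by 1.44 (adjusted p = 7.67e-08, edgeR).

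In the other direction, MKI67, which encodes the proliferation antigen Ki-67, had 21 siNegative and 4 siHNRNPH1 models. Its level was 495, 366 and 502 CPM against 141, 132 and 127 CPM, without overlap, and fell by 1.84 on the log2 scale (SE 0.107, adjusted p = 3.95e-07, edgeR). The 366 CPM is siNegative replicate 2, without which MKI67 fell by 1.97. UHRF1, which maintains DNA methylation, had 31 and 6 models and fell by 2.01 (adjusted p = 6.76e-09, edgeR). NFKB2, an NF-kappa-B subunit, had 21 and 5 models and fell by 2.61 (adjusted p = 2.54e-09, edgeR).

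After scaling to the total models of each pool, 118 of 2687 loci had at least 2-fold more models with siHNRNPH1 (4.39%) and 147 at least 2-fold fewer (5.47%). Of the 118 genes with more models, 97 were higher in short reads (82.2%), against 31.6% of the genes at all 2687 loci and 32.7% of all 16145 genes tested. Of 146 tested genes with fewer models, 131 were lower (89.7%), against 44.2% at all 2687 loci and 32.6% of all genes tested. Without siNegative replicate 2 these numbers were 98 of 118 and 137 of 146. Across 2650 loci the log2 ratio of models and the log2 fold change of the gene were correlated (Pearson r = 0.683, Spearman rho = 0.647). This is a description, because loci are not independent replicates and share the same pools.

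**Figure D1:**
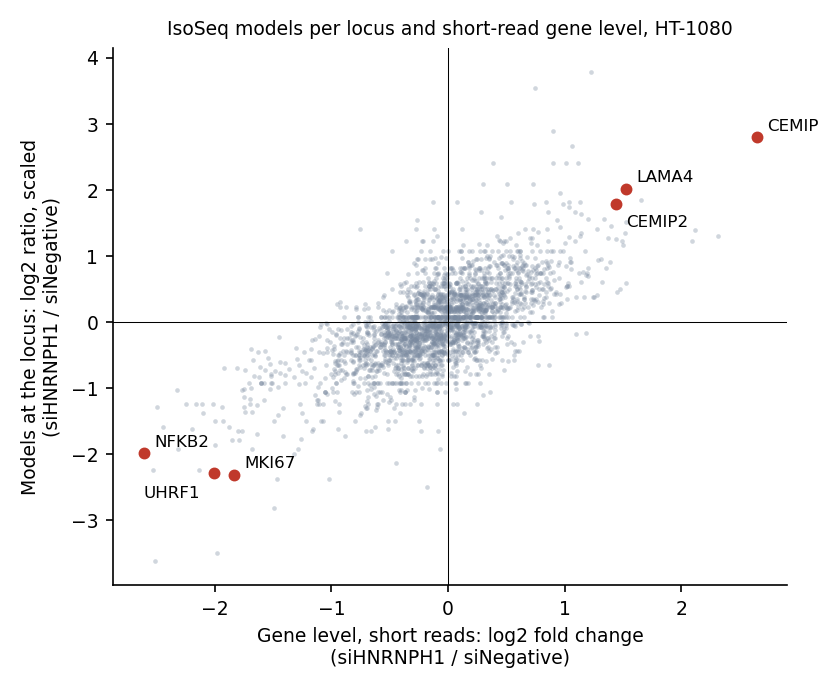
Each point is 1 locus present in both HT-1080 pools. The x axis is the short-read log2 fold change of its gene and the y axis the log2 ratio of its model numbers (siHNRNPH1 over siNegative, scaled to total models). The 6 named genes are in red, with CEMIP, LAMA4 and CEMIP2 high on both axes and MKI67, UHRF1 and NFKB2 low on both.

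There were 845 loci in the siNegative pool only and 768 in the siHNRNPH1 pool only, of which 625 and 584 had 1 model. Of the tested genes at siNegative-only loci, 48% were lower in short reads and 17.9% higher. At siHNRNPH1-only loci 57.1% were higher and 12.7% lower. At loci in both pools 40.6% were lower and 31.6% higher. A locus missing from a pool and a locus too lowly expressed to be sampled there cannot be told apart.

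Fixed gene groups were then counted, against a background of 32.6% of all tested genes lower and 32.7% higher in short reads. Most listed genes had models in both pools, and at loci in both pools 40.6% were lower and 31.6% higher. All 22 mitosis genes fell in short reads, with a median log2 fold change of -1.51, and together they had 263 siNegative and 126 siHNRNPH1 models. TPX2, a spindle assembly factor, had 35 and 14 models. KIF23, a cytokinesis kinesin, had 31 and 13, and PRC1, a midzone microtubule bundler, had 21 and 10. Of 28 hnRNP genes, 25 fell, 2 rose and 1 did not pass the test, with 778 and 621 models in all. The 25 include HNRNPH1, the target of the siRNA, with 15 and 2 models. HNRNPF, a close relative of HNRNPH1, went from 25 to 17 models and fell by 0.83 on the log2 scale (adjusted p = 1.76e-07, edgeR). HNRNPH3, another relative, had 20 and 32 models and rose by 0.90 (adjusted p = 7.46e-08, edgeR).

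Of 16 tested SR protein genes, which encode splicing activators, 12 fell and 1 rose (300 and 237 models over the 17 listed). Of 26 spliceosome genes 19 fell and 3 rose (384 and 347 models), and of 32 translation initiation genes 19 fell and 5 rose (663 and 585 models). Of 20 actin cytoskeleton genes 11 fell and 5 rose, with 480 and 443 models, a ratio near that of the whole pools. Of 14 tested genes listed as splice targets of hnRNP H/F in the literature, 6 fell and 5 rose (211 and 171 models over the 15 listed). Most of that difference in models lay in CD44 (82 and 57) and PKM (39 and 26). Some members had more models with siHNRNPH1, such as MADD (14 and 18). Without siNegative replicate 2 all 22 mitosis genes still fell, 26 hnRNP genes fell and 2 rose, 13 SR genes fell and 2 rose, and 23 spliceosome genes fell and 3 rose. The smaller shifts depended on scaling. With scaling to library size only, 10 SR genes fell and 2 rose, and 16 spliceosome genes fell and 3 rose. Of the literature targets 5 fell and 5 rose there. All 22 mitosis genes and 25 hnRNP genes fell under that scaling too. In bulk cells, fewer cells in a state and less RNA per cell cannot be told apart.

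Splicing was then compared at 6 kinds of event, each with at least 10 informative models in both pools. Informative models are those that span the event and show 1 of its forms. An event was counted where the shares of models differed by at least 20 percentage points. At alternative donors, where an exon ends at 1 of a pair of 5′ splice sites, the longer exon had the higher share with siHNRNPH1 in 26 of 1161 events (2.24%) and the lower share in 6 (0.517%). With each intron chain counted once the numbers were 11 and 6 of 527. Among the 329 donor events whose rarer form reached 10% in a pool, the longer exon was higher in 205 and lower in 112, with a median difference of 3.91 points. In the HEK-293T pools the numbers were 325 and 236 of 571, with a median of 2.83 points. Retained introns were as uneven in HEK-293T, higher in 603 and lower in 839 (median -2.31 points), so the imbalance there is not particular to donors. First exons were higher in 1610 and lower in 2221 (median -2.38 points). Their shares add up to the whole at each locus, so that imbalance is no net shift and cannot be set beside the donors.

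Cassette exons, which are included or skipped, were higher in 42 of 3715 events (1.13%) and lower in 44 (1.18%). Intron retention was higher in 24 of 2642 (0.908%) and lower in 44 (1.67%). The longer exon at alternative acceptors was higher in 16 of 1524 (1.05%) and lower in 14 (0.919%). First exons were higher in 104 of 16771 (0.62%) and lower in 106 (0.632%), and last exons higher in 52 of 5667 (0.918%) and lower in 45 (0.794%). Shares of first exons add up to the whole at each locus, as do those of last exons, so rises and falls offset each other there. In all, 358 of 1685 genes with an event had a counted one (21.2%).

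**Figure D2:**
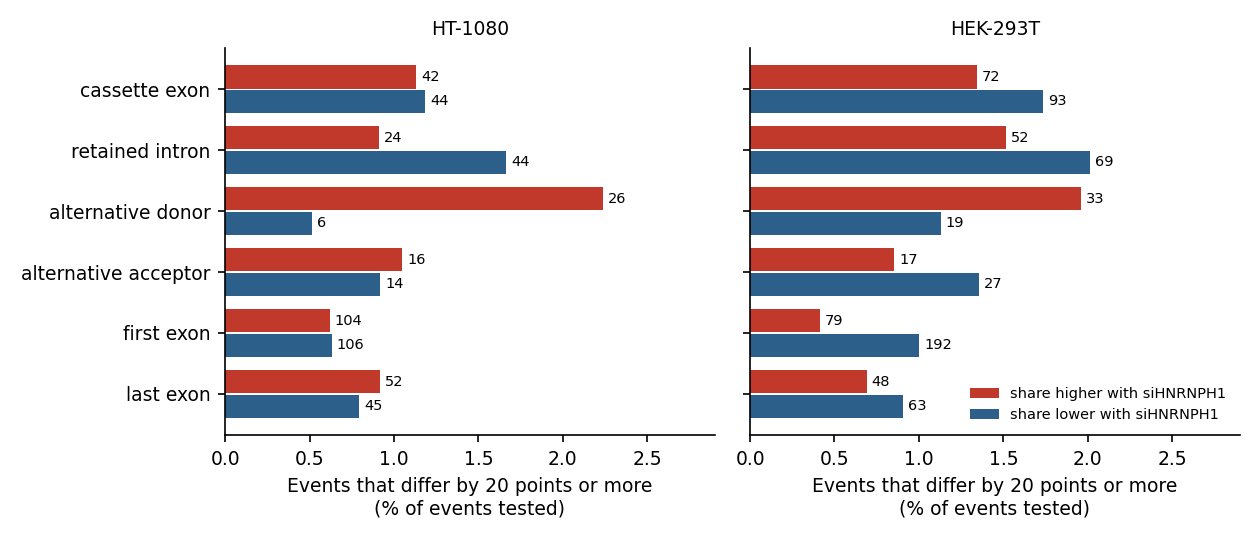
Percent of tested events whose share of models differed by at least 20 percentage points, by kind of event, in HT-1080 (left) and HEK-293T (right), with the number of events beside each bar. In HT-1080 the alternative donors stand at 26 higher against 6 lower, and in HEK-293T the first exons at 79 higher against 192 lower.

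The direction in HEK-293T was known for counted events with at least 10 models in both of its pools. It was the same for 25 and opposite for 14 cassette exons, 15 and 9 retained introns, 7 and 3 donors, 11 and 3 acceptors, 31 and 11 last exons, and 55 and 50 first exons. Among all events that moved in both lines, counted or not, the same direction was seen for 57.9% of cassette exons, 56.3% of retained introns, 56.1% of donors, 55.6% of acceptors, 52.0% of last exons and 50.7% of first exons. Short-read transcript usage, the division of a gene's counts among its transcripts, changed in 1818 of 8910 genes (20.4%, limma diffSplice, Benjamini-Hochberg adjusted). That number was 1170 without siHNRNPH1 replicate 2, 1205 without siHNRNPH1 replicate 3 and 372 with edgeR's diffSpliceDGE. Usage changed in 133 of 300 tested genes with a counted event (44.3%) and in 29.9% of the genes with events but no counted one (47.6% and 32.1% without siNegative replicate 2). By kind, usage changed in 75% of genes with counted donors (36.2% of all genes with donor events), 63.8% for retained introns (36.7%), 53.6% for acceptors (36.2%), 43.1% for last exons (33.4%), 39.4% for first exons (33.4%) and 37.5% for cassette exons (35.1%).

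In 4 counted events the intervals of the pools did not overlap, and these were singled out after their values were seen. They were 2 of 1161 donor events tested, 1 of 3715 cassette exons and 1 of 16771 first exons. None of the 2642 retained introns, 1524 acceptors or 5667 last exons tested had intervals apart. TMEM259, which encodes a membrane protein, ended an exon 105 nt later (chr19:1010991-1011095, minus strand) in 2 of 26 siNegative models (7.69%, interval 0.946 to 25.1) and 11 of 20 siHNRNPH1 models (55%, 31.5 to 76.9). WAC, a regulator of H2B ubiquitination, ended an exon 148 nt later (chr10:28534035-28534182) in 0 of 17 and 8 of 19 models (42.1%, 20.3 to 66.5). HEK-293T showed the long WAC exon in 0 of 4 and 5 of 14 models. Both genes changed in short-read usage (adjusted p = 2.01e-06 for TMEM259 and 2.93e-06 for WAC, limma diffSplice).

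The other 2 were MPRIP and TENT2. MPRIP, a myosin phosphatase partner, included a 63-nt exon (chr17:17180607-17180669) in 15 of 29 and 16 of 17 models (51.7% and 94.1%). TENT2, a poly(A) polymerase, used the first exon that ends at chr5:79613075 in 14 of 25 and 18 of 18 models (56% and 100%), and in 20 of 33 and 33 of 43 HEK-293T models. Short-read usage did not pass the test for MPRIP (adjusted p = 0.0661) or TENT2 (adjusted p = 0.107, limma diffSplice).

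A second set of 63 counted events in 43 genes was chosen after the values were seen, because the HEK-293T share differed the same way by at least 10 points and short-read usage changed. Both properties are thus given as descriptions of that set. It holds 14 cassette exons, 10 retained introns, 8 donors, 7 acceptors, 11 first exons and 13 last exons, and events of 1 gene can overlap. The short-read transcript called most changed for a gene is the one with the smallest p, not the largest change in share. Groups of libraries that do not overlap thus follow largely from the choice. The short-read transcripts were not matched to the IsoSeq forms.

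Several of these genes act on RNA. CELF1, a regulator of splicing and mRNA decay, included a 110-nt exon (chr11:47495943-47496052, minus strand) in 0 of 10 siNegative and 6 of 19 siHNRNPH1 models, and in 0 of 15 and 24 of 36 HEK-293T models. Its usage call (adjusted p = 0.00841, limma diffSplice) was lost without siHNRNPH1 replicate 1 (0.0601), without siHNRNPH1 replicate 3 (0.0693) and with diffSpliceDGE (0.0984). HNRNPH3 included a 139-nt exon (chr10:68337858-68337996) in 11 of 17 models (64.7%) and 21 of 22 models (95.5%), a difference of 30.7 points that was 40 points with each intron chain counted once. At a donor downstream it had a 45-nt longer exon in 8 of 18 and 17 of 26 models (20.9 points, 12.9 with chains counted once). Its usage call (adjusted p = 0.00254, limma diffSplice) was lost with diffSpliceDGE (0.521).

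EIF4A2, an RNA helicase of translation initiation, moved at 3 overlapping events. A 111-nt exon (chr3:186788310-186788420) was included in 12 of 23 siNegative models (52.2%, 30.6 to 73.2) and 2 of 17 siHNRNPH1 models (11.8%, 1.46 to 36.4). The 427-nt intron before it was retained in 17 of 46 (37%) and 18 of 30 models (60%), and in 12 of 24 and 35 of 50 HEK-293T models. In short reads the most changed EIF4A2 transcript made up 19.2, 16.2 and 18% of the gene's counts with siNegative and 42.5, 42.3 and 42.4% with siHNRNPH1. The groups did not overlap (gene-level usage adjusted p = 1.45e-10, limma diffSplice). EIF4A2 itself rose from 530 to 951 CPM (log2 fold change 0.78, SE 0.0414, adjusted p = 2.29e-07, edgeR).

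ATP2C1, a Golgi calcium and manganese pump, gave the best sampled cassette exon of the set. Its 186-nt exon (chr3:130894590-130894775) was in 24 of 50 siNegative models (48%, 33.7 to 62.6) and 37 of 49 siHNRNPH1 models (75.5%, 61.1 to 86.7). HEK-293T had it in 12 of 33 and 25 of 32 models. The gene's level did not pass the test (log2 fold change 0.06, adjusted p = 0.284, edgeR), while its transcript usage changed (adjusted p = 0.000717, limma diffSplice).

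**Figure D3:**
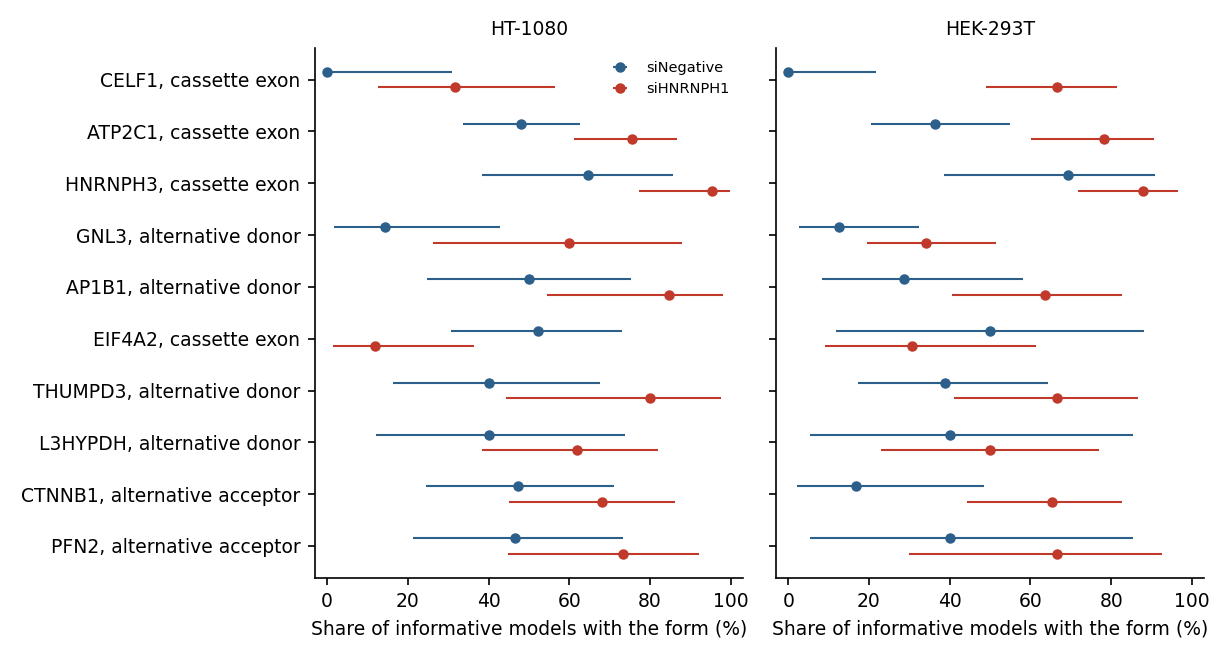
Share of informative models (percent, points) with the named form for 10 genes of the second set in the HT-1080 pools (left) and HEK-293T pools (right), with exact 95% intervals of the counting of models. The intervals of the HT-1080 pools overlap for all 10 genes, by the least for ATP2C1 at 48% and 75.5%.

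Alternative donors of the second set all had the longer exon higher with siHNRNPH1, a direction shared with HEK-293T by the choice of the set. GNL3, a nucleolar GTP-binding protein also called nucleostemin, had a 97-nt longer exon in 2 of 14 and 6 of 10 models. A first exon ended at its later donor (chr3:52686202) in 2 of 18 and 6 of 16 models. One ended at the earlier donor (chr3:52686105) in 12 of 18 and 4 of 16. The most changed GNL3 transcript made up 3.81, 1.84 and 1.37% of counts with siNegative and 20.6, 17.2 and 15.2% with siHNRNPH1, without overlap. THUMPD3, a tRNA methyltransferase, had a 205-nt longer exon in 6 of 15 and 8 of 10 models. A first exon ended at its earlier donor (chr3:9363127) in 9 of 25 and 2 of 19 models. Donor and first exon are thus not separate events for GNL3 and THUMPD3. AP1B1, a clathrin adaptor subunit, had a 6-nt longer exon in 8 of 16 and 11 of 13 models.

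For L3HYPDH, an enzyme of hydroxyproline metabolism, and BAG6, a chaperone for membrane proteins, both competing donors lie inside RefSeq promoter windows (GRCh38.p14), so their bases can be shown. L3HYPDH used the later donor, which lengthens the exon by 129 nt (chr14:59483680-59483808, minus strand), in 4 of 10 and 13 of 21 models. BAG6 used the later donor, 113 nt on (chr6:31652400-31652512, minus strand), in 10 of 14 and 11 of 12 models. Each line gives 3 exon bases and 27 intron bases in the direction of transcription, with runs of GGG or longer in capitals.
L3HYPDH earlier donor, chr14:59483782-59483811: caggtaatGGGcGGGacctttccagcccag
L3HYPDH later donor, chr14:59483653-59483682: aaggtaaatcactgccaacgtgtgtcagca
BAG6 earlier donor, chr6:31652486-31652515: aaagtaaagcttGGGGacctGGGGGGagcc
BAG6 later donor, chr6:31652373-31652402: acggtccgtGGGGaagtcGGGGGcggagcc
The earlier L3HYPDH donor has 2 such runs in its intron bases and the later donor 0, while each BAG6 donor has 2. Read in the direction of transcription, GGG occurred in the same bases of 61.1% of the 1438 donors that such windows hold in full, so its presence is common there. Short-read usage of L3HYPDH (adjusted p = 1.70e-07) and BAG6 (0.00249) passed with limma diffSplice and was lost with diffSpliceDGE (0.298 and 0.583).

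At acceptors, ARFIP2, an Arf-binding protein, had a 40-nt longer exon in 5 of 13 and 15 of 18 models (38.5% and 83.3%, a difference of 44.9 points and of 61.7 with chains counted once), and RNH1, the ribonuclease inhibitor, an 84-nt longer exon in 0 of 13 and 6 of 13. CTNNB1, which encodes beta-catenin, had a 159-nt longer exon in 9 of 19 and 15 of 22 models, and in 2 of 12 and 17 of 26 HEK-293T models. Its most changed transcript rose from 19.7, 22.3 and 21.2% of counts to 43.4, 46.7 and 45.2% (gene-level usage adjusted p = 1.75e-08, limma diffSplice). PFN2, the actin-binding profilin 2, had a 322-nt longer exon in 7 of 15 and 11 of 15 models. Its last exon began at the same site (chr3:149966586) in 7 of 18 and 11 of 17 models. It began at the acceptor of the shorter form (chr3:149966264) in 9 of 18 and 4 of 17. Acceptor and last exon are thus not separate events for PFN2. The most changed PFN2 transcript made up 36.3, 34.8 and 35.5% of counts with siNegative and 73.1, 70.9 and 70.3% with siHNRNPH1. Neither gene's groups overlapped.

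**Figure D4:**
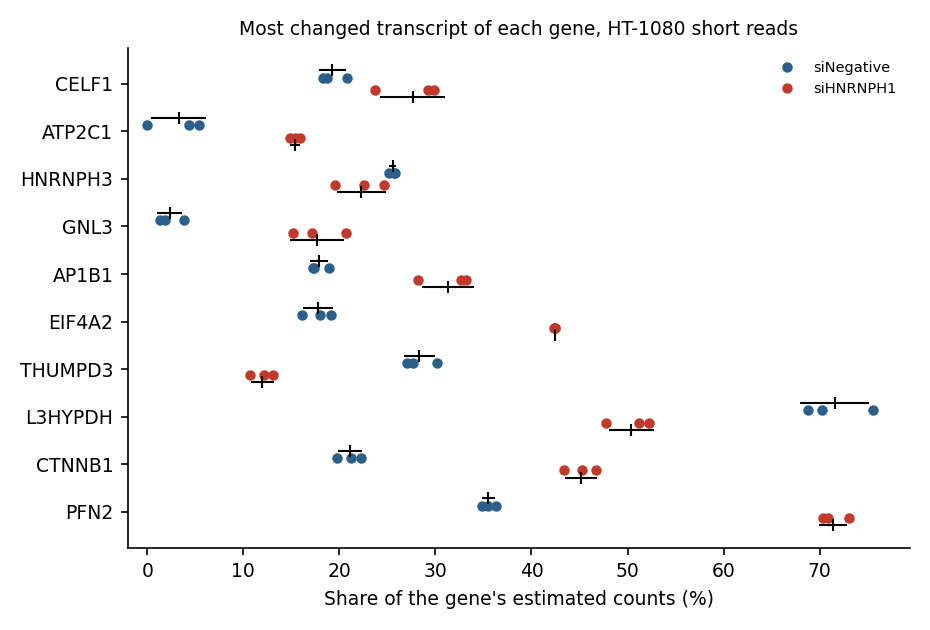
Share of the gene's estimated short-read counts (percent, x axis) held by the most changed transcript of 10 genes in each of the 6 HT-1080 libraries, with mean and SD in black. Most changed means the smallest p, not the largest change in share. For PFN2 the siNegative libraries lie between 34.8 and 36.3% and the siHNRNPH1 libraries between 70.3 and 73.1%.

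Among retained introns, NELFCD, a subunit of the negative elongation factor, kept a 101-nt intron in 13 of 15 and 4 of 11 models (86.7% and 36.4%), and in 16 of 16 and 22 of 27 HEK-293T models. Another NELFCD intron, of 466 nt, went the other way, retained in 3 of 16 and 6 of 13 models. The NELFCD usage call (adjusted p = 0.000979, limma diffSplice) was lost without siHNRNPH1 replicate 1 (0.0560), with no minimum share (0.317) and with diffSpliceDGE (0.772). SLC38A10, an amino acid transporter, kept a 582-nt intron in 6 of 13 and 1 of 14 models. A last exon that runs over an intron also counts as retention here. The NELFCD last exon beginning at chr20:58994642, before the 101-nt intron, was in 13 of 17 and 4 of 13 models. The SLC38A10 last exon beginning at chr17:81252683, before the 582-nt intron, was in 7 of 16 and 1 of 14. Retention and choice of last exon are thus not separate events there. NOP2, an rRNA methyltransferase, used a first exon ending at chr12:6568207 in 10 of 17 and 5 of 17 models. Its most changed transcript held 55.7, 55.5 and 50.5% of counts with siNegative and 18.8, 16.1 and 23.7% with siHNRNPH1, without overlap.

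At loci in both pools, 11611 introns were seen with siNegative only and 11262 with siHNRNPH1 only. Of these, 33 (siNegative) and 109 (siHNRNPH1) were in at least 5 models. For 13 of the 33 and 73 of the 109 the other pool had no model across the position. With at least 10 spanning models in the other pool, 6 and 14 remained. PSME3, a proteasome activator, had such an intron (chr17:42834257-42834343) in 0 of 16 siNegative and 6 of 17 siHNRNPH1 models, and in 0 of 16 and 4 of 25 HEK-293T models. TCOF1, a ribosome biogenesis factor, had one (chr5:150379043-150379531) in 6 of 24 siNegative and 0 of 14 siHNRNPH1 models. Of the 8 siHNRNPH1 introns with enough HEK-293T models, 7 were higher with siHNRNPH1 there, including both introns beside the CELF1 exon above. The PTK2 intron was lower there (2 of 32 and 0 of 41 models). Of the 4 siNegative introns with enough HEK-293T models, 3 were lower with siHNRNPH1 there and 1 was higher.

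The genes in the title of the study had no event counted as differing. EIF4G1, the scaffold of the translation initiation complex, had 92 and 88 models. Its 87-nt exon (chr3:184316132-184316218) was in 20 of 26 siNegative models (76.9%, 56.4 to 91) and 15 of 21 siHNRNPH1 models (71.4%, 47.8 to 88.7). A 3-nt longer exon at an EIF4G1 acceptor was in 28 of 74 and 21 of 71 models (37.8% and 29.6%), with overlapping intervals. A 177-nt EIF4G1 exon was in 26 of 26 and 20 of 22 models (100% and 90.9%). A 107-nt EIF4G1 intron was retained in 3 of 78 and 0 of 74 models. In short reads EIF4G1 was at 1487, 1364 and 1486 CPM against 1243, 1245 and 1231 CPM, without overlap, and fell by 0.29 on the log2 scale (SE 0.0479, adjusted p = 0.000470, edgeR). Its usage did not pass the test (adjusted p = 0.186, limma diffSplice).

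AURKA, a mitotic kinase, had 23 and 14 models, all with the same last exon. Its main first exons ended at chr20:56391943 in 9 of 23 and 6 of 14 models (39.1% and 42.9%), at chr20:56392168 in 8 of 23 and 5 of 14, and at chr20:56392154 in 5 of 23 and 3 of 14. A 98-nt exon was included in 4 of 10 and 4 of 9 models. A 473-nt form of that exon was in 2 of 8 and 0 of 5 models, too few to be counted. The AURKA intervals of the pools overlapped at each of these sites. In short reads AURKA was at 139, 142 and 134 CPM against 51.4, 51.1 and 48.6 CPM, without overlap, and fell by 1.53 (SE 0.0487, adjusted p = 1.10e-08, edgeR), while its usage did not pass the test (adjusted p = 0.262, limma diffSplice).

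The rule for naming genes, which ranks events with at least 20 models by the gap between intervals, also picked many events with small differences. CAST, the calpain inhibitor, included an 81-nt exon in 71 of 81 and 77 of 79 models, and ASPH, an aspartate hydroxylase, a 42-nt exon in 82 of 88 and 86 of 87. Larger differences were picked for 3 further genes. SEPTIN2, a cytoskeletal GTPase, retained an intron in 0 of 37 and 5 of 38 models, and PTK2, focal adhesion kinase, had a 4-nt longer exon in 0 of 39 and 5 of 42. HYOU1, an endoplasmic reticulum chaperone, had a 3-nt longer exon in 0 of 24 and 8 of 34 models. In HEK-293T these forms were in 3 of 59 and 3 of 72 models for SEPTIN2, 2 of 32 and 0 of 40 for PTK2, and 2 of 15 and 7 of 29 for HYOU1. The other events of PAM, CANX, CD44, FLNA, NIPA2, EIF4G2, ITGB1, HDLBP, DCBLD2 and FN1 differed by less than 5 points.

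Transcript ends moved at few loci. Among 1358 last exons with a shared start, the median length was at least 1.5-fold longer with siHNRNPH1 in 47 (3.46%) and shorter in 19 (1.4%), and 19 of 43 with enough HEK-293T models had the same direction there. These 66 loci fell in number to 16 (11 longer, 5 shorter) with at least 20 models in each pool and to 11 (6 longer, 5 shorter) by the ratio of means. The last exon of EIF3A, the largest subunit of the initiation factor eIF3, had a median of 478 nt in 33 models and 1220 nt in 29 models. WAC had 424 and 993 nt, and NEDD4L, a ubiquitin ligase, 535 and 1237 nt. The medians were lower for TIAL1, an RNA-binding protein (1098 and 408 nt), CUL4B, a cullin (2237 and 934 nt), and OPA1, a mitochondrial fusion GTPase (1010 and 451.5 nt). For EIF3A the quartiles were 478 and 1222 nt in both pools, so the lengths within a pool spread over the same range. For WAC the lower quartile was 424 nt in both pools, and the upper quartile was 1223.5 nt with siNegative and 993 nt with siHNRNPH1. The HEK-293T medians were 870 nt in both pools for EIF3A, 424 nt in both for WAC and 2237 nt in both for CUL4B. They were 2113 and 2112 nt for TIAL1, and 1166 and 1157 nt for OPA1. For NEDD4L they were 475.5 and 981.5 nt, from 2 and 10 models.

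Total exonic length was at least 1.5-fold higher at 8 of 1677 loci (0.477%) and lower at 2 (0.119%), and at 1 locus in all by the ratio of means. Among loci with at least 20 models in each pool, the medians were highest relative to siNegative for RIC8A, a chaperone of G-alpha proteins (2492 and 3439 nt), MBOAT7, an acyltransferase (2720 and 3564 nt), and HSP90AA1, the stress-inducible HSP90 (1769 and 2293 nt). They were lowest for DHRS2, a dehydrogenase (2066.5 and 1626 nt), TPM1, a tropomyosin (2190 and 1755 nt), and JAK1, a cytokine receptor kinase (3940 and 3292 nt). The quartile ranges of the 2 pools overlapped for each of these 6 genes.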

How the data were processed

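IsoSeq models were deposited as positions of exons of collapsed high-quality isoforms, per the file names and labels, without abundance. The aligner and settings are not given in the sources used here. For the short reads, the authors deposited expected counts of each transcript, from RSEM, with GRCh38.p13 as build, per the submitters' processing notes. Models were joined into loci by same-strand exon overlap and named from RefSeq spans (GRCh38.p14, names only). At splice sites inside RefSeq promoter windows, 2208 of 2209 donors began with GT or GC and 508 of 508 acceptors ended with AG. Single-exon models were left out of events, and a retained intron needed 10 nt of exon on each side. Expected counts were summed per gene, rounded and tested with edgeR 4.0.16 (quasi-likelihood, TMM, filterByExpr). Transcript usage was tested with limma 3.58.1 diffSplice on transcripts holding at least 5% of their gene. Both used Benjamini-Hochberg adjustment over all genes and a threshold of 0.05. CPM values are a gene's counts divided by the library's total, without TMM. The labels call the replicates biological, and siNegative replicate 2 stood apart from the other siNegative libraries.

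On simulated data with 192 genes changed 3-fold among 15857, the gene-level test recovered 186 with 15 false calls. For the usage test, among 8554 genes, the 2 leading transcripts of some genes were exchanged. It recovered 122 of the 135 exchanged genes whose leading transcripts were at least 2-fold apart. Exchanged genes with a smaller gap, which are harder to detect, are not in the 135. Of all 163 calls, 28 were false. The event counting was checked on models with known forms.

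The members and gene lists were chosen with earlier results of these data known. Genes were named by rule: HNRNPH1, EIF4G1 and AURKA, then per kind of event and direction the 3 events with the largest gap between intervals among those with at least 20 models, and the 3 largest ratios for lengths and model numbers. Alternatives were minimum models, difference in share, intron chains counted once, merged junctions, scaling, filters, DESeq2 1.42.0, diffSpliceDGE, a replicate block and leaving out each library.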

Additional observations from a re-analysis of the deposited data

Results flagged for a closer look

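In 7 counted events the share of models moved by at least 20 percentage points in opposite directions in the 2 cell lines, with at least 10 models in each pool. With 1 pool per siRNA and line these differences were not tested. A NUMA1 exon was in 13 of 14 siNegative and 20 of 29 siHNRNPH1 models of HT-1080 (-23.9 points), and in 0 of 16 and 5 of 23 models of HEK-293T. A DDX11 intron was retained in 9 of 16 and 2 of 10 HT-1080 models (-36.25 points) and in 7 of 16 and 13 of 19 HEK-293T models. The last exon of SON beginning at chr21:33576418 changed by -24.4 points in HT-1080 (9 of 17 to 4 of 14 models) and by 31.7 points in HEK-293T. The remaining 4 were first exons, with HT-1080 differences of 21.5 points for HERC4, 23.6 for CCAR2, 21.4 for WWP1 and -24.5 for FBXW2.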

How the results depend on the processing

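The event counts depended on the thresholds. Requiring at least 20 models left 8 cassette exons, 5 retained introns, 1 alternative donor, 5 alternative acceptors, 13 first exons and 1 last exon. At 30 percentage points the counts were 15, 16, 7, 6, 38 and 21 in the same order. Counting each intron chain once gave 48 cassette exons, 17 donors (11 higher, 6 lower), 18 acceptors, 91 first exons and 42 last exons. Leaving out first exons inside other exons gave 116 first exons. Last-exon lengths numbered 16 with at least 20 models and 11 by ratio of means. Exonic lengths numbered 0 and 1, and loci with differing model numbers 142 with each chain once. Merging junctions within 6 nt kept every event count within 1.5 times. Of the 63 events of the second set none reversed with chains counted once, 56 stayed within their interval and 7 lay beyond it in the same direction (HNRNPH3, MIA2, PLRG1, NOP56, CCDC14, ARFIP2 and TANK). The 61 events still present after merging stayed within theirs. Without siNegative replicate 2, chosen after seeing the data, SR genes that rose numbered 2. The number of genes with changed level was 9535 to 11625 with 1 library left out, and all 99 alternative values for the 9 named genes kept direction and call. Changed usage numbered 1170 to 1741 with 1 library left out and 372 with diffSpliceDGE. Of the 43 genes of the second set, 28 kept the usage call without any 1 library and 18 with diffSpliceDGE. With the replicate block 10504 genes changed in level and 1510 in usage. Same-numbered replicates correlated at -0.002, 0.085 and 0.032, so the numbers were not treated as pairs, and only replicate 2 correlated best with its own number. The cause of these differences was not tested. The number of models limits every share: in only 4 counted events were the intervals of the pools apart.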
